A study of Homo sapiens with 29 samples.

Results

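The troponin genes are the 8 genes for the subunits of the troponin complex, namely TNNC1 and TNNC2 for troponin C, TNNI1, TNNI2 and TNNI3 for troponin I, and TNNT1, TNNT2 and TNNT3 for troponin T. They were chosen by symbol and not by any measured value, through the RefSeq accession printed with each array probe, and they are 8 of the 22439 genes that the array probes named in this way. All 8 were measured, by 10 probes in all, and all 10 probes passed the filter on dim signal. The question addressed here is how the slow, fast and cardiac troponin transcripts of human myoblasts responded to knockdown of the zinc finger transcription factor ZNF148, in growth and in differentiation media.

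Troponin sits on the thin filament of striated muscle and makes contraction depend on calcium. Troponin C binds calcium, troponin I holds the filament in the relaxed state, and troponin T anchors the complex to tropomyosin. Each subunit has isoforms: TNNC2, TNNI2 and TNNT3 are the fast skeletal genes, TNNI1 and TNNT1 the slow skeletal genes, TNNC1 serves slow skeletal and cardiac muscle, and TNNI3 and TNNT2 are the cardiac genes, with TNNT2 also known from developing skeletal muscle.

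The cells were LHCN-M2, a line of human skeletal myoblasts that is immortalized by telomerase and CDK4, so every group shares these transgenes and the background of a single line. Cells received 20 nM of nontargeting siRNA or of siRNA against ZNF148. They were sampled after 24 h in growth media while subconfluent, and when confluent after 48 or 96 h in growth media or in differentiation media, the growth factor-depleted media in which myoblasts fuse. The 10 groups hold 3 biological replicates each, except nontargeting siRNA at 96 h in growth media with 2, and each of the 29 samples was hybridised to its own one-colour array. The methods can be read as starting the 48 and 96 h counts in either media after the first 24 h, so equal hours in the 2 media were compared as labelled and not as equal times since transfection.

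Array signals are given here as log2 values after quantile normalization, so a difference of 1 is a 2-fold change. A probe's signal was compared with the same probe on other arrays only, because probes differ in brightness for equal RNA. A gene was called changed when limma's adjusted p was below 0.05 and the change was more than 2-fold. On bulk RNA, more cells expressing a transcript and more transcript per cell cannot be told apart. The RefSeq promoter table at build GRCh38.p14 held 3 of the 8 genes, and their 250 bases before the start of transcription are shown because all 3 genes were called higher after the knockdown in 3 conditions below. They are written 5′ to 3′ on the gene's own minus strand, with E-boxes, the CANNTG motif that myogenic basic helix-loop-helix factors such as MYOD and myogenin can bind, in capitals.
TNNT2, chr1:201377681-201377930: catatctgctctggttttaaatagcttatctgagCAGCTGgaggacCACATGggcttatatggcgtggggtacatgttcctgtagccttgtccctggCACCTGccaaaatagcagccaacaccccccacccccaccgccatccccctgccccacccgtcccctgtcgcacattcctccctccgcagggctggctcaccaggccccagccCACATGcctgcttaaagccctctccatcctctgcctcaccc
TNNT1, chr19:55149207-55149456: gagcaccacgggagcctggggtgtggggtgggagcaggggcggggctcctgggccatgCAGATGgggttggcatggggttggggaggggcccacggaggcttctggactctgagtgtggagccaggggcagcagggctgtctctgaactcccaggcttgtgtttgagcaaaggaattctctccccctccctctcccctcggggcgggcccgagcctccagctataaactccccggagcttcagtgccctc
TNNI3, chr19:55157733-55157982: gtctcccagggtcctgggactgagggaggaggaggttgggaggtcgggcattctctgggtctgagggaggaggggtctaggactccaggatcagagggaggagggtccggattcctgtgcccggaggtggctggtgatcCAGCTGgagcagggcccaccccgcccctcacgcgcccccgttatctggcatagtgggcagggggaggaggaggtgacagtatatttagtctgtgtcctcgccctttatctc
The TNNT2 window held 4 E-boxes, with first bases 216, 204, 153 and 41 before the start, the TNNT1 window held 1 at 192, and the TNNI3 window held 1 at 111. Over the 35116 promoter windows of the table, 61.8% held at least 1 E-box on either strand, so its presence is common. An MCAT element, searched as CATTCC on both strands, was found in the TNNT2 window at 81 and in 11.9% of all windows. A TATA box, searched as TATAAA, was found in the TNNT1 window at 29 and in 10.7% of all windows. GC boxes (GGGCGG, 42.6% of windows) were found in TNNT1 and TNNI3 and CACCC boxes (CCACCC, 31.3%) in all 3, while the MEF2 consensus, present in 2.8% of windows, had no match in any of them. These matches are letters in a window and were not tied to binding. In the same annotation TNNT1 and TNNI3 lie side by side on chromosome 19 with 0 protein-coding genes between them, TNNT2 and TNNI1 on chromosome 1 have 1 between them (LAD1), and TNNI2 and TNNT3 on chromosome 11 have 2 (LSP1 and PRR33). TNNC1 lies on chromosome 3 and TNNC2 on chromosome 20.

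One array has to be named before the results. Replicate 1 of nontargeting siRNA at 48 h in growth media had troponin signals far above the other 2 arrays of its group, for example 17.06 for TNNC2 against 7.84 and 7.78. Its ZNF148 signal was 8.51, near the 8.85 and 9.19 of the other nontargeting arrays of that group and above the 6.91, 6.90 and 6.53 of the knockdown arrays. The label was kept, the main fit used all 29 arrays, and calls of troponin genes are also given from a fit of the other 28 arrays. Since all groups share 1 estimate of the spread, this array widened the standard errors of every comparison, from 0.20 to 1.38 for TNNC2 in a comparison of 3 against 3 arrays.

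Between 41.5% and 56.5% of probes were well above background per array. ZNF148 itself was lower after its siRNA in all 5 comparisons, by 1.53 to 2.74 on the log2 scale, and its second probe fell by 2.04 to 2.94. Of 8 skeletal myoblast and muscle markers, 6 to 8 were above background on every array, with MYOD1 group means of 15.6 to 17.3. Desmin, which smooth muscle also makes, had group means of 13.9 to 18.5. The summed level of the smooth muscle list, which includes desmin and ACTA2, was higher with the knockdown from 48 h on, at 18.5 to 18.7, and its defining MYH11 went from 2.78, below background, to 10.54 at 48 h in differentiation media. The fibroblast list summed to 15.9 to 17.4 over the groups, and its members differed in direction at 96 h in growth media, with nontargeting and knockdown means of 13.86 and 9.09 for THY1, 16.94 and 14.24 for DCN, and 14.19 and 16.81 for COL1A1. The cardiomyocyte list summed to 15.6 to 16.5 in every group, set by the NKX2-5 probe, while TBX5 was above background on 0 arrays and RYR2 on 1. Of the same list NPPA and MYH6 were above background on all knockdown arrays from 48 h on, with means at 96 h in growth media of 9.47 and 9.45 against 1.95 and 3.00, both below background, under nontargeting siRNA. The part of these marker levels in the troponin results was not tested. All 24 h arrays lay on a slide and scan of their own, so a level at 24 h against a later level cannot be told apart from slide, while both siRNAs shared that slide. At 48 h each of 3 slides held every group. At 96 h some arrays shared their slide with no array of the other siRNA in the same media and at the same time. These were 2 knockdown arrays in growth media and 1 in differentiation media. The main fit has no term for slide.

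ZNF148 knockdown was followed by higher troponin signal throughout, in every class of subunit and isoform, once the cells were confluent. At 48 h in growth media 8 of 8 troponin genes were called higher, with a median log2 change of 5.57, against 11.7% of all 18398 genes tested (median −0.05), and 0 were lower, against 12.2%. Fitted on the arrays of that comparison alone, 2 of the 8 troponin genes were called, and the share of all genes was not computed for that fit. At 96 h in growth media 8 of 8 were higher, with a median of 5.75, against 12.3%, and 0 were lower, against 12.4%. In differentiation media at 48 h 8 of 8 were higher, with a median of 5.75, against 15.1%, and 0 were lower, against 17.3%. The last condition, 96 h in differentiation media, had 6 of 8 higher, with a median of 3.16, against 10.5%, and 0 were lower, against 12.8%. At 24 h 0 of 8 were called in either direction, against 2.46% higher and 3.08% lower, with a median of 0.32.

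Counting arrays without a model also set the confluent conditions apart from 24 h. All 8 genes had every knockdown array above every nontargeting array at 48 h in growth media (29.4% of all genes), 96 h in growth media (35.6%), 48 h in differentiation media (33%) and 96 h in differentiation media (28.5%). At 24 h this held for 3 genes, TNNI2, TNNT1 and TNNT2, against 27.9%, so that share is near the background. In the fit of the other 28 arrays the called counts were 1 at 24 h (TNNI2, against 2.7%), 8 at 48 h in growth media (12.9%), 8 at 96 h in growth media (12.3%), 8 at 48 h in differentiation media (15.2%) and 7 at 96 h in differentiation media (10.7%).

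**Figure D1:**
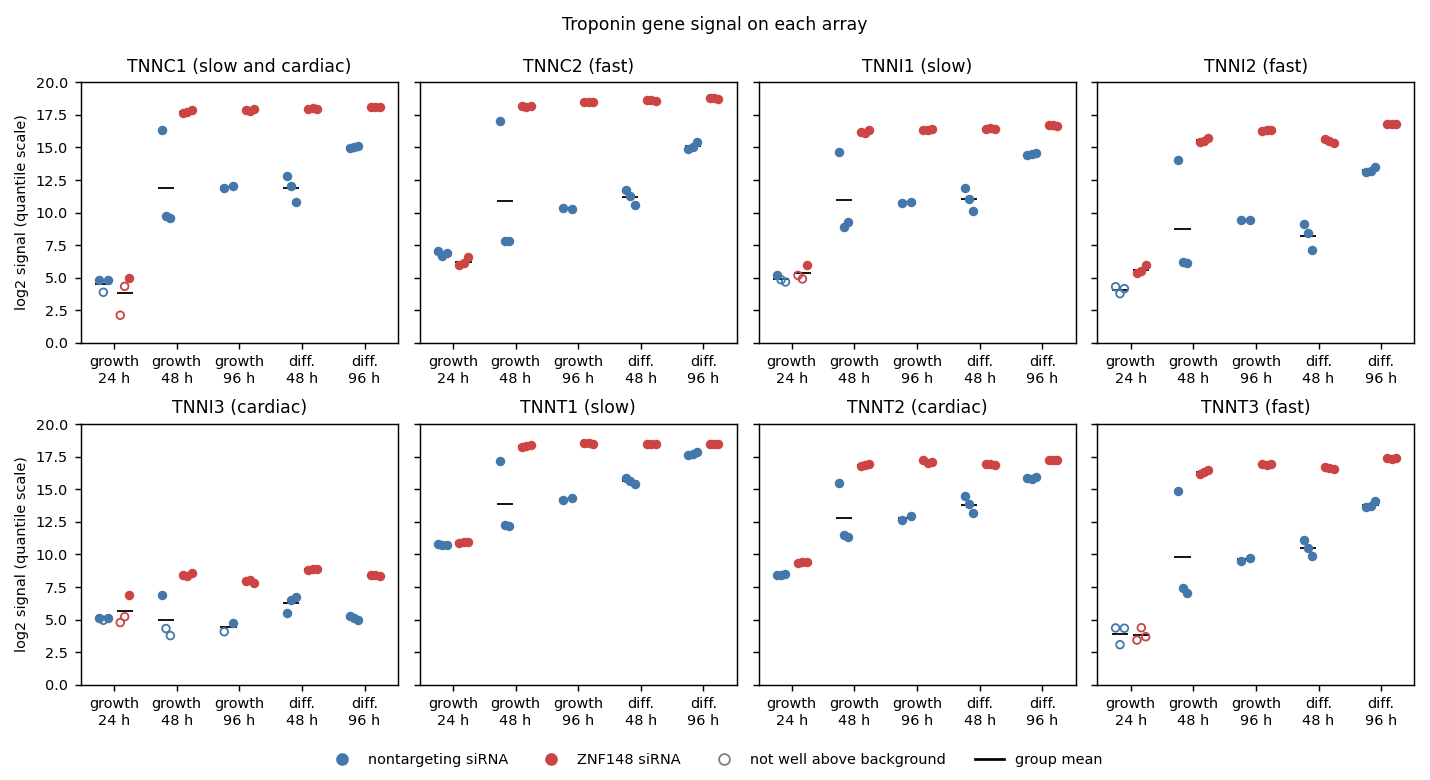
Log2 signal (y axis) of each troponin gene on each of the 29 arrays, by media and hours (x axis), for nontargeting and ZNF148 siRNA, with a bar at each group mean and open points where the probe was not well above background. From 48 h on the knockdown arrays lie above the nontargeting arrays in every panel, and the nontargeting array that reached 17.06 for TNNC2 at 48 h in growth media lies apart from the others of its group.

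Troponin C is the calcium sensor. TNNC2, the fast skeletal form, was near its lowest at 24 h, with signals of 7.06, 6.65 and 6.91 under nontargeting siRNA and 5.97, 6.11 and 6.55 after the knockdown. The knockdown arrays were the lower ones there, without overlap, by 0.67 ± 1.38 (SE) on the log2 scale (limma adjusted p = 0.835, and 0.0184 without the outlying array, where the change stayed under 2-fold). By 48 h in growth media the nontargeting arrays gave 17.06, 7.84 and 7.78 and the knockdown arrays 18.18, 18.14 and 18.19. All knockdown arrays were higher, by 7.28 ± 1.38 (limma adjusted p = 0.000137), and by 10.36 ± 0.23 in the fit of the other 28 arrays.

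At 96 h in growth media TNNC2 read 10.36 and 10.29 under nontargeting siRNA and 18.49 on each of the 3 knockdown arrays, a 288-fold difference (8.17 ± 1.54, limma adjusted p = 0.000146) and the largest of the 8 genes in that comparison. The probe ranked 8 from the top on each of those 3 arrays. Quantile normalization gives equal ranks equal values, so the equal readings do not measure agreement between replicates. In differentiation media the nontargeting signals were 11.74, 11.24 and 10.56 at 48 h and 14.85, 15.04 and 15.43 at 96 h, against 18.63, 18.63 and 18.55 and then 18.79, 18.79 and 18.73 after the knockdown. The nontargeting cells thus narrowed the gap between the times, and the difference was 7.42 ± 1.38 at 48 h (limma adjusted p = 8.48e-05) and 3.67 ± 1.38 at 96 h (limma adjusted p = 0.0328). No troponin spot was saturated on any array.

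TNNC1, the troponin C of slow fibres and heart, gave 4.81, 3.88 and 4.79 at 24 h under nontargeting siRNA and 2.12, 4.34 and 4.97 after the knockdown, and 3 of these 6 signals were not well above background. Its 24 h arrays overlapped, with a difference of −0.68 ± 1.11 (limma adjusted p = 0.767). Confluent growth media cells at 48 h had nontargeting signals of 16.35, 9.71 and 9.58 and knockdown signals of 17.68, 17.68 and 17.90. The difference was 5.88 ± 1.11 (limma adjusted p = 0.000125) over all arrays and 8.11 ± 0.56 without the outlying array, where the fold rose from 58.7 to 276.

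TNNC1 at 96 h in growth media read 11.86 and 12.06 against 17.88, 17.83 and 17.95, a difference of 5.93 ± 1.24 (limma adjusted p = 0.00041). In differentiation media it read 12.83, 12.04 and 10.78 at 48 h and 14.95, 15.03 and 15.14 at 96 h under nontargeting siRNA. The knockdown arrays read 17.98, 18.02 and 17.94, then 18.10, 18.13 and 18.07, so they stood above the nontargeting arrays at each time. The knockdown difference was 6.10 ± 1.11 at 48 h (limma adjusted p = 6.27e-05) and 3.06 ± 1.11 at 96 h (limma adjusted p = 0.0264).

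Troponin I is the inhibitory subunit. TNNI2, its fast skeletal form, was the only troponin gene called at 24 h in either fit. Its 24 h signals were 4.30, 3.77 and 4.16 under nontargeting siRNA, none well above background, and 5.37, 5.51 and 5.95 after the knockdown. All 3 knockdown arrays were above all 3 nontargeting arrays, by 1.53 ± 1.20 (limma adjusted p = 0.432) over all arrays and by the same amount with an SE of 0.30 (limma adjusted p = 0.000588) without the outlying array. Because the nontargeting side was below background, the change is given against a floor, as 2.11-fold higher. The floor was the lowest signal among well-measured probes of each nontargeting array (mean 4.54) or the probe's own where that was higher. It is no detection limit, so the fold may be smaller. TNNI1 signals of 4.67 to 5.18 on these nontargeting arrays were well above background on only 1 of 3.

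TNNI2 at 48 h in growth media gave 14.02, 6.18 and 6.10 under nontargeting siRNA and 15.42, 15.53 and 15.74 after the knockdown, a difference of 6.80 ± 1.20 (limma adjusted p = 6.13e-05), and 9.42 ± 0.34 without the outlying array. The same media at 96 h gave 9.39 and 9.46 against 16.28, 16.34 and 16.36, a difference of 6.90 ± 1.34 (limma adjusted p = 0.000199). Knockdown arrays were the higher ones in both cases. In differentiation media the nontargeting arrays at 48 h gave 9.12, 8.46 and 7.11 and those at 96 h gave 13.10, 13.20 and 13.47. The knockdown signals were 15.66, 15.52 and 15.31, then 16.80, 16.82 and 16.78. TNNI2 was thus higher by 7.27 ± 1.20 at 48 h (limma adjusted p = 2.04e-05) and by 3.54 ± 1.20 at 96 h (limma adjusted p = 0.0182).

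TNNI1, the slow skeletal form, read 5.18, 4.84 and 4.67 at 24 h under nontargeting siRNA and 5.17, 4.90 and 5.94 after the knockdown, near background and overlapping, with a difference of 0.44 ± 0.87 (limma adjusted p = 0.822). In growth media at 48 h it read 14.68, 8.88 and 9.29 against 16.17, 16.15 and 16.31, a difference of 5.26 ± 0.87 (limma adjusted p = 2.98e-05) and of 7.13 ± 0.33 without the outlying array. By 96 h it read 10.71 and 10.84 against 16.35, 16.31 and 16.41 (5.58 ± 0.98, limma adjusted p = 6.24e-05). The knockdown signals of TNNI1 differed little between these times.

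In differentiation media TNNI1 read 11.88, 11.05 and 10.10 at 48 h and 14.46, 14.48 and 14.55 at 96 h under nontargeting siRNA, against 16.41, 16.46 and 16.40 and then 16.69, 16.75 and 16.67. The difference was 5.41 ± 0.87 at 48 h (limma adjusted p = 1.54e-05) and 2.21 ± 0.87 at 96 h (limma adjusted p = 0.0424). A second TNNI1 probe was not well above background on any 24 h array. After the knockdown it was higher by 4.54 at 48 h and 3.50 at 96 h in growth media, where it was above background on 1 of 3 and 1 of 2 nontargeting arrays, and by 3.57 at 48 h in differentiation media. Its value of 0.60 at 96 h there was not called (limma adjusted p = 0.57), so the probes of TNNI1 disagreed in the call at 96 h in differentiation media though not in sign.

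TNNI3, the cardiac troponin I, was the member least like the others. Its 24 h signals were 5.13, 4.95 and 5.16 under nontargeting siRNA and 4.77, 5.22 and 6.91 after the knockdown, with overlap and a difference of 0.55 ± 0.55 (limma adjusted p = 0.568). At 24 h it was well above background on 2 of 3 nontargeting and 1 of 3 knockdown arrays. In growth media at 48 h the nontargeting arrays gave 6.91, 4.31 and 3.77, and only the first, the outlying array, was well above background. The knockdown arrays gave 8.42, 8.37 and 8.55, higher by 3.45 ± 0.55 (limma adjusted p = 1.96e-05). Without the outlying array the nontargeting side was below background. Against a floor taken as for TNNI2 at 24 h, TNNI3 was 16.8-fold higher, or 4.07 on the log2 scale (limma adjusted p = 1.16e-08 for the fitted change).

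TNNI3 at 96 h in growth media read 4.06 and 4.76 against 7.93, 8.02 and 7.83, a difference of 3.51 ± 0.62 (limma adjusted p = 6.65e-05). Only 1 of the 2 nontargeting arrays was well above background there, so that difference is limited by background. In differentiation media it read 5.53, 6.53 and 6.70 at 48 h and 5.24, 5.14 and 5.00 at 96 h under nontargeting siRNA, against 8.78, 8.90 and 8.90 and then 8.39, 8.44 and 8.34. TNNI3 was the only member whose nontargeting signals were lower at 96 h than at 48 h in differentiation media. The knockdown difference was 2.60 ± 0.55 at 48 h (limma adjusted p = 0.000361) and 3.26 ± 0.55 at 96 h (limma adjusted p = 3.95e-05), so it was not smaller at the later time, while the values of the other 7 were (that change over time was not tested).

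Troponin T ties the complex to tropomyosin. TNNT3, the fast skeletal form, was not well above background on any of the 6 arrays at 24 h, with 4.36, 3.07 and 4.33 against 3.42, 4.37 and 3.68, so no fold is given there. In growth media at 48 h it read 14.89, 7.46 and 7.01 under nontargeting siRNA and 16.20, 16.32 and 16.47 after the knockdown. The knockdown arrays were all higher, by 6.55 ± 1.17 (limma adjusted p = 6.87e-05), and by 9.10 ± 0.33 without the outlying array.

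TNNT3 at 96 h in growth media read 9.52 and 9.71 against 16.95, 16.90 and 16.98, a 160-fold difference (7.33 ± 1.31, limma adjusted p = 7.57e-05). In differentiation media it read 11.11, 10.49 and 9.91 at 48 h and 13.66, 13.74 and 14.07 at 96 h under nontargeting siRNA. After the knockdown it read 16.70, 16.68 and 16.60, then 17.41, 17.30 and 17.44, above the nontargeting arrays at each time. The differences were 6.16 ± 1.17 at 48 h (limma adjusted p = 0.000105) and 3.56 ± 1.17 at 96 h (limma adjusted p = 0.015). A second TNNT3 probe moved in the same direction from 48 h on, by 6.96, 7.41, 6.35 and 3.58 in the 4 comparisons in the same order.

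TNNT1, the slow skeletal form, was well above background on all arrays, also at 24 h, where it read 10.79, 10.73 and 10.70 against 10.85, 10.98 and 10.98. The 24 h knockdown arrays were higher without overlap but by only 0.20 ± 0.73 (limma adjusted p = 0.929). In growth media at 48 h it read 17.16, 12.25 and 12.20 against 18.26, 18.31 and 18.43, a difference of 4.46 ± 0.73 (limma adjusted p = 2.63e-05) and of 6.11 ± 0.10 without the outlying array. By 96 h it read 14.20 and 14.33 against 18.55, 18.55 and 18.46 (4.25 ± 0.82, limma adjusted p = 0.000183).

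In differentiation media TNNT1 came closest to a common level under both siRNAs. It read 15.87, 15.62 and 15.38 at 48 h under nontargeting siRNA and 18.49, 18.49 and 18.46 after the knockdown, a difference of 2.86 ± 0.73 (limma adjusted p = 0.00214). At 96 h it read 17.64, 17.71 and 17.83 against 18.49, 18.46 and 18.49, still without overlap. That difference, 0.75 ± 0.73 or 1.69-fold, was not called over all arrays (limma adjusted p = 0.438) and stayed under 2-fold without the outlying array (limma adjusted p = 2.93e-07). As a measure of the range left above it, and not of RNA level, the TNNT1 probe ranked 10 to 20 from the top of 58201 probes on the knockdown arrays at 48 h in growth media and 8 to 9 at 96 h in differentiation media, and the TNNC2 probe 24 to 28 and 3 to 4.

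TNNT2, the cardiac and developmental form, was also well measured at 24 h, with 8.44, 8.45 and 8.47 under nontargeting siRNA and 9.33, 9.45 and 9.39 after the knockdown. These groups did not overlap, and the difference was 0.94 ± 0.63 (limma adjusted p = 0.343) over all arrays and 0.94 ± 0.19 (limma adjusted p = 0.000664), under 2-fold, without the outlying array. In growth media at 48 h it read 15.52, 11.53 and 11.33 against 16.78, 16.83 and 16.92 (4.05 ± 0.63, limma adjusted p = 1.39e-05, and 5.42 ± 0.21 without the outlying array). By 96 h it read 12.63 and 12.98 against 17.23, 16.99 and 17.13 (4.31 ± 0.71, limma adjusted p = 2.87e-05). TNNT2 was thus higher after the knockdown at both times, by 16.6-fold and 19.8-fold.

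In differentiation media TNNT2 read 14.45, 13.87 and 13.15 at 48 h and 15.88, 15.80 and 15.93 at 96 h under nontargeting siRNA, against 16.92, 16.92 and 16.84 and then 17.23, 17.27 and 17.28. The difference was 3.07 ± 0.63 at 48 h (limma adjusted p = 0.00026). At 96 h it was 1.39 ± 0.63, without overlap, and was not called over all arrays (limma adjusted p = 0.0768) but was without the outlying array (limma adjusted p = 2.54e-06).

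**Figure D2:**
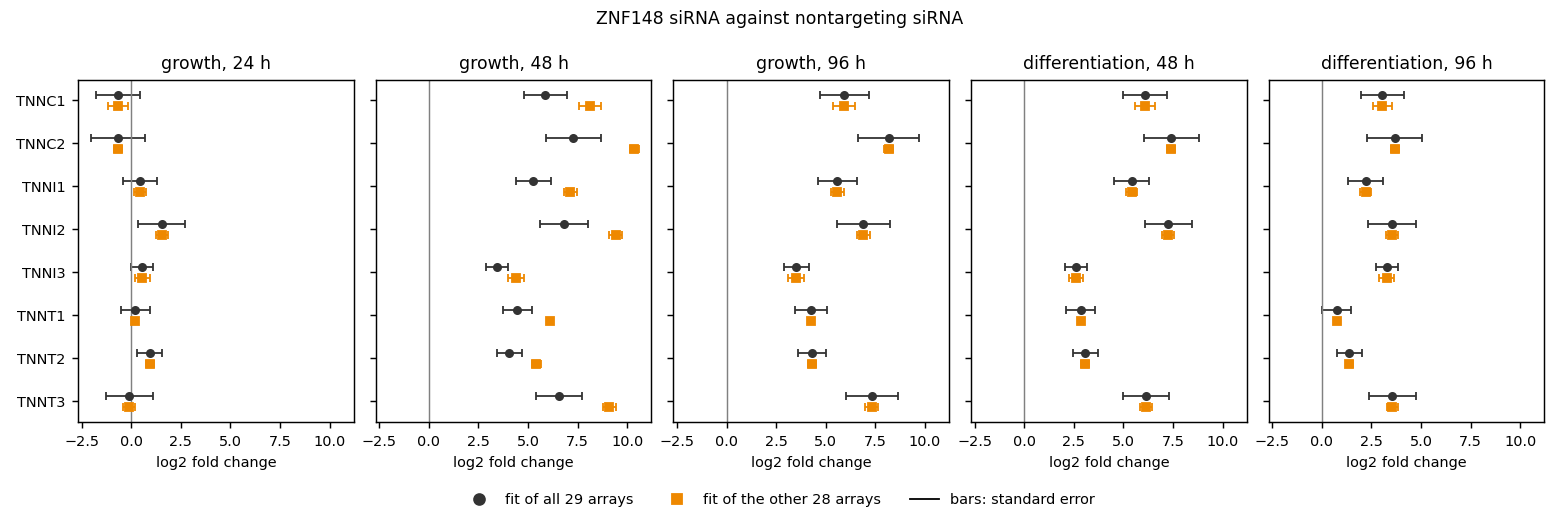
Log2 fold change of each troponin gene, ZNF148 over nontargeting siRNA (x axis), with bars for the standard error, in the 5 conditions, from the fit of all 29 arrays and of the other 28. At 24 h the values lie around 0, from 48 h on they lie to the right of it, and TNNC2 is the farthest at 96 h in growth media with 8.17.

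Within slides that held both siRNAs the direction was the same for every troponin gene from 48 h on. At 48 h in growth media the 3 within-slide values of a gene ranged widely, for TNNC2 from 1.08 to 10.40, and the lowest value of each gene came from the slide with the outlying array. At 48 h in differentiation media the within-slide values of TNNI2, for example, ran from 6.40 to 8.55 over 3 slides, and at 96 h those of TNNT1 ran from 0.63 to 0.82 over 2 slides. At 96 h in growth media only 1 slide held both siRNAs, and there TNNC2 was higher by 8.17.

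The knockdown difference was larger at the confluent growth media times than at 24 h for all 8 genes, by the test of that difference. For 48 h minus 24 h, 8 of 8 were called (10.3% of all genes in that direction), from 2.90 for TNNI3 (limma adjusted p = 0.0057) to 7.95 for TNNC2 (limma adjusted p = 0.00268). Without the outlying array these values were 3.85 and 11.03 and all 8 were called. In a fit of only the arrays compared, the outlying array included, 0 of the 8 troponin genes were called. The share of all genes was not computed for that last fit. For 96 h minus 24 h, 8 of 8 were called (11.6%), from 2.96 for TNNI3 (limma adjusted p = 0.0072) to 8.83 for TNNC2 (limma adjusted p = 0.00172). The 2 comparisons share the 24 h arrays, and cell density differs between 24 h and the later times together with slide. For TNNT3, not above background at 24 h, and TNNC1, TNNI1, TNNI2 and TNNI3, below it on some 24 h arrays, the 24 h part of the difference is limited by background.

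Differentiation media raised troponin signal in cells with nontargeting siRNA at 96 h, with a median log2 change of 3.59 over the 8 genes. At that time 6 of 8 genes were higher in differentiation than in growth media, against 6.81% of all genes. The largest changes were 4.78 ± 1.54 for TNNC2 (limma adjusted p = 0.0195) and 4.20 ± 1.31 for TNNT3 (limma adjusted p = 0.0154), and TNNT1 and TNNT2 changed by 3.47 ± 0.82 and 3.07 ± 0.71 (limma adjusted p = 0.00204 and 0.00161). TNNI1 and TNNI2 were higher by 3.72 ± 0.98 and 3.83 ± 1.34 (limma adjusted p = 0.00471 and 0.0312). TNNC1, at 3.08 ± 1.24, was not called (limma adjusted p = 0.0606), and neither was TNNI3, at 0.72 ± 0.62 (limma adjusted p = 0.434). All 8 genes had their differentiation media arrays above their growth media arrays (33.3% of all genes), and without the outlying array 7 were called (7.27%), all but TNNI3. No slide held both of these groups, so there is no within-slide value, and with slide as a block 3 of the 8 troponin genes were called (TNNI1, TNNT1 and TNNT2). The share of all genes was not computed for the fit with slide.

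At 48 h the answer for nontargeting cells turned on the outlying array. With it, 0 of 8 genes were called higher in differentiation media (7.77% of all genes), 2 had an unadjusted p under 0.05, and TNNI2 had a value of −0.54. All 8 overlapped between media, where 26.5% of all genes were higher without overlap. Without it all 8 were called (9.14%), from 1.93 for TNNI1 (limma adjusted p = 5.71e-05) to 3.40 for TNNT1 (limma adjusted p = 3.55e-16). TNNI2 then was higher by 2.09 (limma adjusted p = 3.58e-05).

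Between 48 and 96 h in differentiation media 7 of 8 genes rose in nontargeting cells, against 5.76% of all genes. Those 7 were higher without overlap, as were 26.6% of all genes. TNNI2 had the largest change, 5.03 ± 1.20 (limma adjusted p = 0.00231), followed by TNNC2 with 3.93 (limma adjusted p = 0.0331) and TNNI1 with 3.48 (limma adjusted p = 0.0035). TNNC1 rose by 3.16 and TNNT3 by 3.32 (limma adjusted p = 0.0323 and 0.0332), and TNNT1 and TNNT2 by 2.10 and 2.05 (limma adjusted p = 0.0319 and 0.0156). TNNI3 was the exception at −1.13 ± 0.55 (limma adjusted p = 0.137), and without the outlying array it was called lower (limma adjusted p = 0.0205, against 4.24% of genes lower) while the other 7 stayed higher (6.15%). With slide as a block 3 of the troponin genes were called (TNNI1, TNNI2 and TNNT2), with TNNC1, TNNC2, TNNT1 and TNNT3 at limma adjusted p from 0.0656 to 0.0695. That fit likewise has no computed share of all genes.

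**Figure D3:**
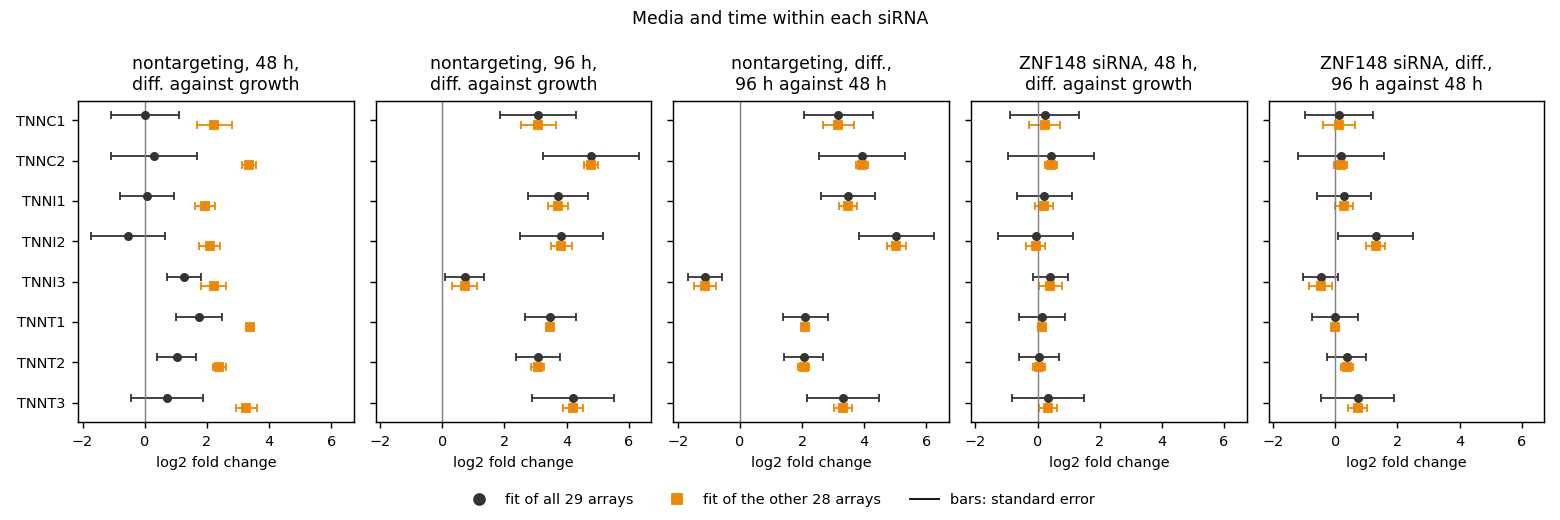
Log2 fold change of each troponin gene (x axis) with bars for the standard error, for differentiation against growth media and for 96 against 48 h within each siRNA, from the fit of all 29 arrays and of the other 28. In nontargeting cells the values reach 5.03 (TNNI2, 96 against 48 h), while those after the knockdown run from −0.47 (TNNI3) to 1.31 (TNNI2). The 48 h media panel of nontargeting cells changes most between the fits.

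After the knockdown no troponin gene was called between media, or between 48 and 96 h, over all arrays. The TNNC2 and TNNT1 probes were near the top of the signal range in these groups, and the part of this was not tested. At 48 h 0 of 8 were called between media (1.13% of all genes higher), with values from −0.07 to 0.43, and at 96 h 0 of 8 (1.45%), with values from −0.03 to 0.47. In the fit of all arrays the 95% intervals were wide, for TNNC2 at 48 h from −2.45 to 3.31, and without the outlying array they narrowed to 0.00 to 0.85. The order of arrays still differed, and 6 of 8 genes had all differentiation media arrays above all growth media arrays at 48 h (20.6% of all genes) and 6 of 8 at 96 h (20.8%).

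Between 48 and 96 h the knockdown cells had 0 of 8 genes called in growth media (4.13% higher), with values from −0.52 for TNNI3 to 0.77 for TNNI2, and 5 genes higher without overlap (24.9%). In differentiation media 0 of 8 were called (4.33%), with values from −0.47 for TNNI3 to 1.31 for TNNI2, and 6 were higher without overlap (23%). TNNI2 was the exception, and without the outlying array its 1.31 ± 0.30 was called (limma adjusted p = 0.0021, 1 of 8 against 4.51%).

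The difference of the knockdown effects between media was tested directly. At 96 h it was called lower in differentiation media for 2 of 8 genes (6.93% of all genes), TNNT1 with −3.50 ± 1.10 (limma adjusted p = 0.0237) and TNNT2 with −2.92 ± 0.95 (limma adjusted p = 0.0284). The other 6 were also negative, from −0.25 for TNNI3 to −4.50 for TNNC2, and were not called (limma adjusted p from 0.0683 to 0.879). Without the outlying array 7 were called (8.07%), all but TNNI3. TNNT1 means at 96 h after the knockdown were 18.52 in growth and 18.48 in differentiation media, near the top of the signal range. Its nontargeting means were 14.26 and 17.73, and the part of the limited range in its difference was not tested. At 48 h 0 of 8 were called (9.07% of all genes lower), with TNNC1, TNNC2, TNNI1 and TNNI2 between 0.14 and 0.47 and the others between −1.61 and −0.39, whereas without the outlying array all 8 were called lower (10.3%), from −3.25 for TNNT1 to −1.71 for TNNI1. The call at 48 h thus rests on 1 array.

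The order of the groups was much alike for 7 of the genes. Ordered by mean signal, all genes but TNNI3 had the 24 h groups lowest, then 3 nontargeting groups (48 and 96 h in growth media, 48 h in differentiation media), then nontargeting cells at 96 h in differentiation media, and the 4 confluent knockdown groups last. Arrays of the 48 and 96 h nontargeting growth media groups overlapped for these 7 genes, because of the outlying array. Nontargeting cells at 96 h in differentiation media overlapped neither neighbour in the order. The outlying array, whose group was not always a neighbour, still lay above all of their arrays for TNNC1, TNNC2, TNNI1, TNNI2 and TNNT3. It lay below them for TNNT1 and TNNT2. The confluent knockdown groups lay close together, with TNNC1 means from 17.75 to 18.10, and some neighbours among them overlapped for TNNC1, TNNI1, TNNI2, TNNT1 and TNNT2 and not for TNNC2 and TNNT3. For TNNI3 all 5 nontargeting groups and the 24 h knockdown group ran together, each overlapping the next, below the 4 confluent knockdown groups. Across the 29 arrays the correlations of these 7 genes with each other ran from r = 0.961 to 0.9948 over 21 pairs, and those of TNNI3 with the others from 0.7219 to 0.8156 over 7 pairs. The points share the groups and the outlying array, so these values describe the arrays only. TNNI3 was near background on many nontargeting arrays, and the part of this in its lower correlations was not tested.

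Within an array the difference between a fast and a slow probe has no meaning as a level, since the probes differ, but its change between groups compares the 2 genes' responses. TNNT3 minus TNNT1 went from −4.64 (mean, nontargeting) to −1.57 (knockdown) at 96 h in growth media, a change of 3.07, and changed by 2.08 at 48 h in growth media. The changes in differentiation media were 3.30 (48 h) and 2.81 (96 h). In these 4 comparisons every knockdown array lay above every nontargeting array. TNNI2 minus TNNI1 changed by 1.32 at 96 h in growth media and by 1.85 and 1.34 in differentiation media, without overlap, and by 1.53 with overlap at 48 h in growth media. TNNC2 minus TNNC1 changed by 2.24, 1.32 and 0.61 in the same 3 comparisons and by 1.40 with overlap at 48 h in growth media.

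An exact two-sided permutation test of 3 against 3 arrays cannot give a p below 0.1 and gave 0.1 for each of those comparisons without overlap between groups of 3 (0.139 after Benjamini-Hochberg adjustment), so none passes a threshold of 0.05. TNNT1 and TNNC2 were near the top of the signal range after the knockdown, and the part of this in their changes was not tested. The cardiac TNNT2 minus the slow TNNT1 changed little by comparison, by −0.41, 0.06 and 0.21 with overlap at 48 and 96 h in growth media and 48 h in differentiation media, and by 0.64 without overlap at 96 h. TNNI3 minus TNNI1 changed by −2.07 at 96 h in growth media, where TNNI3 was above background on only 1 of the 2 nontargeting arrays, by −2.81 at 48 h in differentiation media and by 1.06 at 96 h there, when TNNI1 had risen in nontargeting cells and TNNI3 had not.

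**Figure D4:**
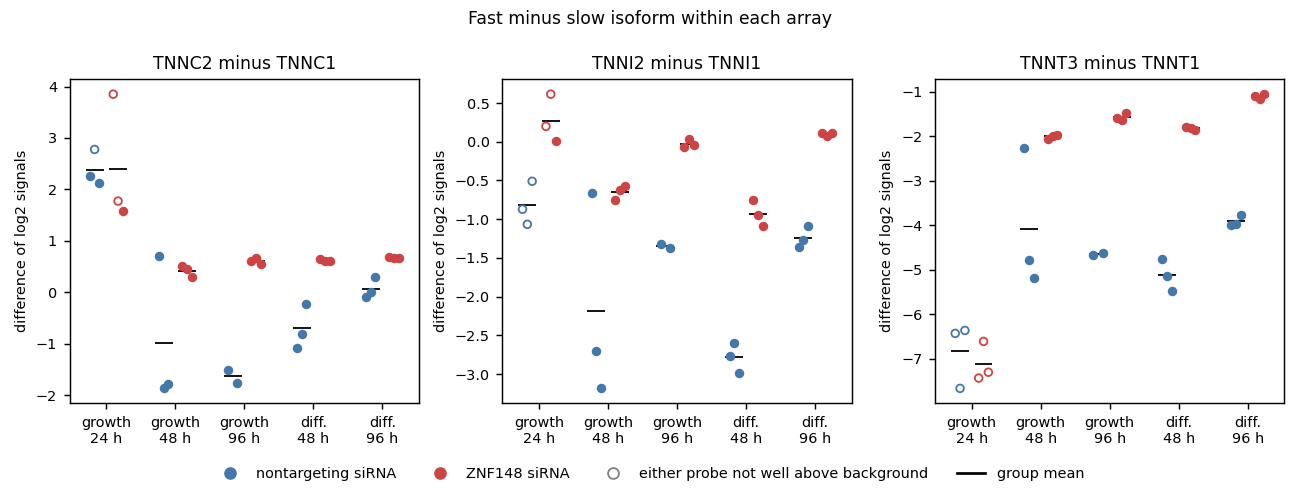
Within-array log2 difference between the fast and the slow probe (y axis) for troponin C, I and T on each array, by media and hours (x axis), with a bar at each group mean. For troponin T the knockdown arrays lie above the nontargeting arrays in all 4 confluent conditions, with group means of −4.64 against −1.57 at 96 h in growth media.

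Other genes of the contractile apparatus were read from lists chosen for their known roles. Of 19 tested thin filament genes, the actins, tropomyosins and their capping and binding partners, 13 were higher and 3 lower after the knockdown at 48 h in growth media (median 2.29, and 3.04 without the outlying array), 12 and 2 at 96 h (median 1.94), 12 and 2 at 48 h in differentiation media (median 2.64) and 10 and 1 at 96 h (median 1.28). LMOD2 and NRAP, a leiomodin and a nebulin-related anchoring protein, were highest at 96 h in growth media with fitted values of 8.88 and 8.33. NRAP was not above background under nontargeting siRNA and was 104.6-fold higher against a floor taken as for TNNI2. The tropomodulins TMOD3 and TMOD2, which cap filament ends, were lowest with −1.96 and −1.62. The shares of all genes called higher were 11.7%, 12.3%, 15.1% and 10.5% in the same order of conditions. Those called lower were 12.2%, 12.4%, 17.3% and 12.8%. The list thus held genes called in both directions, but its lower counts were near or under these shares and are no result about the list.

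All 10 slow-fibre partners were higher at 48 and 96 h in growth media and 48 h in differentiation media and 9 of 10 at 96 h in differentiation media, with medians of 5.61, 7.83, 7.30 and 5.38, the first 7.49 without the outlying array. The shares of all genes called higher were 11.7%, 12.3%, 15.1% and 10.5% in that order. MYBPC1, the slow myosin-binding protein C, had a fitted 9.92 at 96 h in growth media, or 340-fold against the same kind of floor. CSRP3, a muscle LIM protein, had 9.08, while the calcium pump ATP2A2 had 2.65 and the light chain MYL6B 3.68. Of 10 fast-fibre partners 9, 9, 9 and 7 were higher in the same order, against the same shares, with medians of 5.00, 4.19, 4.19 and 2.62. Without the outlying array 8 were higher at 48 h in growth media (12.9% of all genes), with a median of 6.68. MYOZ1 with a fitted 8.85, or 162-fold against that floor, and the light chain MYL1 with 8.33 were highest at 96 h in growth media. MYL1 was above background on 1 of 2 nontargeting arrays. MYH4 with 0.04 (limma adjusted p = 0.989) and ACTN3 with 1.94 were lowest. Fast-fibre partners were thus higher with the troponins at 96 h in growth media, except for MYH4.

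Of 8 tested cardiac partners, 3, 4, 3 and 3 were higher in these conditions, against 11.7%, 12.3%, 15.1% and 10.5% of all genes. Their medians were 0.39, 1.23, 0.38 and 0.83, beside medians of −0.06 to −0.03 over all genes. NPPA with a fitted 7.52, or 41.0-fold against the same kind of floor, and the light chain MYL4 with 7.41 were highest at 96 h in growth media. NKX2-5 with 0.07 and MYBPC3 with 0.12 were lowest. The cardiac troponins TNNT2 and TNNI3 were called higher there with 4.31 and 3.51, whereas 4 of these 8 genes were not called.

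**Figure D5:**
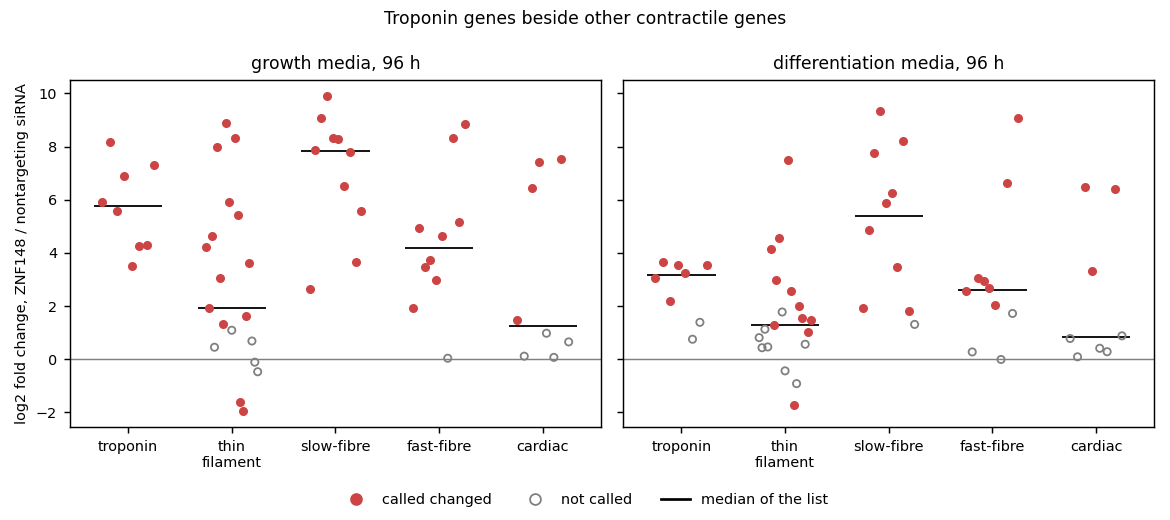
Log2 fold change, ZNF148 over nontargeting siRNA (y axis), of each tested gene of the troponin, thin filament, slow-fibre, fast-fibre and cardiac lists at 96 h in growth and in differentiation media, filled where called changed, with a line at each list's median. The troponin median is 5.75 in growth and 3.16 in differentiation media, and the lists other than troponin and slow-fibre hold genes near or below 0 in both panels.

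The genes most like each troponin over the 29 arrays were found among 16212 genes. For TNNC1 they were CACNG1 (r = 0.9932), CKM (0.9908) and MYL11 (0.9907), and for TNNC2 CAVIN4 (0.9963), HRC (0.9956) and MEF2C (0.9953). For TNNI1 they were CKM (0.9946), CACNG1 (0.9944) and MYH3 (0.9936), for TNNI2 NCAM1 (0.9924), TRIM54 (0.9915) and HES6 (0.9896), and for TNNT3 CKM (0.997), MYH3 (0.996) and CACNG1 (0.9955). CKM is muscle creatine kinase, MYH3 the embryonic myosin heavy chain and CACNG1 a subunit of the skeletal muscle calcium channel. For TNNT1 they were ARPP21 (0.9949), NEB (0.9943), the giant thin filament protein nebulin, and CASZ1 (0.9929), and for TNNT2 ARPP21 (0.995), CKM (0.9923) and CEACAM16 (0.9913). TNNI3 had no equally close neighbour, with CDC14B (0.9651), HSPB1 (0.9602) and TP53INP2 (0.9529) its nearest. Its nontargeting group means were only 4.41 to 6.25, and the part of low signal in its lower correlations was not tested.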

How the data were processed

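Total RNA of LHCN-M2 cells was labelled with Cy3 and hybridised to 29 one-colour Agilent arrays. The deposited text files hold spot intensity as Agilent Feature Extraction 10.7.3.1 wrote it, per the file headers, and the authors also deposited a table of log2 values, quantile-normalized on background-subtracted signal. Here the background-subtracted intensity was used, without control spots and spots marked as outliers, with repeat spots averaged as log2 values before quantile normalization of the arrays. Troponin values differed from the authors' log2 table by at most 0.0564. A probe was tested if well above background on at least 2 arrays (38714 of 58201). Group means of all 10 groups were fitted with limma 3.58.1 in R 4.3.3, two-sided, with Benjamini-Hochberg adjustment over all tested probes, and calls needed an adjusted p below 0.05 with over 2-fold change. The brightest tested probe on average stood for its gene. The fit was tested on simulated data.

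All 8 troponin genes were named. Other lists are given by counts, medians and the 2 highest and 2 lowest members, and likeness by the 3 highest correlations. Members and lists were chosen with earlier results of these data known. Names came from the RefSeq accession of each probe through a table at GRCh38.p14, which named 31104 probes. The labels call the samples of a group biological replicates, and p-values measure the spread between them. Array signals carry no read depth, and the number of arrays limits the precision. Alternatives were scaling, background correction, filters, array weights, slide and replicate blocks, the methods' t-test, the deposited table and leaving out arrays.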

Additional observations from a re-analysis of the deposited data

Results flagged for a closer look

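The knockdown difference of the troponin genes differed between time points, by limma's test of the difference itself. For 48 h minus 24 h in growth media the log2 values were 6.56 for TNNC1, 7.95 for TNNC2, 4.82 for TNNI1, 5.26 for TNNI2, 2.90 for TNNI3, 4.26 for TNNT1, 3.11 for TNNT2 and 6.64 for TNNT3. For 96 h minus 24 h they were 6.61, 8.83, 5.14, 5.37, 2.96, 4.05, 3.37 and 7.42 in the same order of genes. Between media at 96 h the difference was −3.50 for TNNT1 and −2.92 for TNNT2, lower in differentiation media. After the knockdown TNNT1 was near the top of the signal range in both media.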

How the results depend on the processing

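Of the 16 counts of called troponin genes, recomputed under each alternative that applies to the comparison, 302 values stayed within 1.5 times the main count and 42 did not. Of the single-gene values, 2565 kept direction and call, 64 gained and 97 lost a call and 5 reversed, all 5 on leaving out 1 array. A further 43 of 2731 changed sign where no call was made. The number of troponin genes called changed as follows. Scaling to the 75th percentile gave 1 for differentiation minus growth media knockdown effects at 96 h (main 2). Normexp gave 1 for nontargeting media at 48 h (main 0). Fitting only the arrays of a comparison gave 1 for knockdown at 24 h (main 0), 2 at 48 h in growth media (main 8), 1 for time after knockdown in differentiation media (main 0), 0 for 48 h minus 24 h (main 8) and 7 for differentiation minus growth media at 96 h. Array weights gave 5 for nontargeting media at 48 h, 3 for differentiation minus growth media at 48 h (main 0) and 7 at 96 h. Slide as a block gave 3 for nontargeting media at 96 h (main 6), 3 for nontargeting time in differentiation media (main 7) and 0 for differentiation minus growth media at 96 h. The methods' t-test gave 1 troponin gene at 24 h, 3 at 48 h in growth media and 1 for time after knockdown in differentiation media at unadjusted p, and 1, 0 and 1 after Benjamini-Hochberg adjustment. The cause was not tested where neither fewer arrays nor the outlying array sets the count. The share of all genes called was computed only for the main fit and the fit without the outlying array.

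Leaving out 1 array at a time gave 8 troponin genes throughout for knockdown at 48 and 96 h in growth media and 48 h in differentiation media, 7 to 8 for both differences against 24 h, 0 to 1 for knockdown at 24 h and 3 to 7 at 96 h in differentiation media. It gave 0 to 8 for nontargeting media at 48 h, 3 to 7 at 96 h, 2 to 8 for nontargeting time in differentiation media, 0 to 1 for time after knockdown in differentiation media, and 0 to 8 and 0 to 7 for differentiation minus growth media at 48 and 96 h. The counts of 8 for both 48 h media comparisons, 7 for differentiation minus growth media at 96 h and 1 at 24 h came from leaving out replicate 1 of nontargeting siRNA at 48 h in growth media. Leaving out any 1 array of the 96 h differentiation media groups gave the 3 for knockdown there. Either nontargeting array at 96 h in growth media gave the 3 for media at 96 h and the 0 for differentiation minus growth media, where ZNF148 siRNA replicate 1 in growth media and nontargeting replicate 3 in differentiation media gave 1. For nontargeting time the 2 to 3 came from replicates 2 and 3 at 48 h and any array at 96 h in differentiation media, and replicate 1 at 48 h gave 1 for nontargeting media at 48 h. Over the arrays left out TNNI2 ran from −1.87 to 2.09 for nontargeting media at 48 h, and the difference between media at 48 h ran from −2.02 to 1.37 for TNNC1, −2.94 to 1.70 for TNNC2, −1.71 to 1.19 for TNNI1 and −2.15 to 1.80 for TNNI2. Leaving out 1 of the 2 nontargeting arrays at 96 h in growth media leaves a lone array assumed to vary like the others. With the replicate number as a block the counts of troponin genes were equal to those without it, such as 8, 8, 8 and 6 for the knockdown from 48 h on, and same-numbered arrays correlated by −0.146 to 0.124 in their deviations from the group means, so the numbers were not taken as pairs. Low signal limits the 24 h values, where TNNT3 was not well above background.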
